A study of Mus musculus with 30 samples.

Results

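Krt6a, Krt6b, Krt16 and Krt17 encode the stress keratins, the intermediate filament proteins that keratinocytes add to their cytoskeleton when the epidermis is wounded or inflamed. The 4 genes were taken by their symbols from the annotation of the array. They were 4 of the 20967 genes that had a probe set to themselves, and 8 of the 45101 probe sets on the array carried one of their symbols. All 8 passed the filter on low values and were among the 36029 probe sets tested. Krt6a had 3 probe sets, Krt6b and Krt16 had 1 each, and Krt17 had 3, of which 1427841_at was annotated to Krt14 as well.

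The arrays measured RNA from whole shaved back skin of female 129–C57BL/6 mice, 8 to 12 weeks old, that were either wild type (WT) or deficient in D6, a receptor that scavenges inflammatory CC chemokines. Skin received 3 applications of 50 μM TPA, a phorbol ester that inflames the skin, at 24-h intervals and was taken on day 1, 2, 4 or 6 afterwards. The day 0 mice of each genotype received acetone, the solvent, although part of their labels calls them untreated. Each of the 10 genotype-by-day groups held 3 mice, labelled as biological replicates, with 1 array per mouse and 30 arrays in all. The deficiency was present in every cell of the mouse and not only in keratinocytes, and whole skin holds dermis, fat, glands and hair follicles besides epidermis. Values of single genes are log2 intensities or differences between them, so that a difference of 1 is a doubling, and sums over marker lists are sums of linear intensities.

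The RMA-normalised arrays had medians between 5.64 and 5.80 on the log2 scale, and pairs of arrays correlated at between 0.93 and 0.99. Ccbp2, the gene for D6, lay between 3.30 and 3.86 in the 15 D6-deficient arrays and between 4.15 and 5.76 in the 15 WT arrays with 1422112_at. Its other probe sets, 1422111_at and 1437937_at, overlapped between genotypes. The 9 hybridization control probe sets split the arrays into 17 with a higher and 13 with a lower mean, and the split crossed 9 of the 10 groups. The D6-deficient arrays of day 6 were all in the higher set.

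Keratins are built as pairs of a type I and a type II chain. Krt6a and Krt6b are type II chains, and Krt16 and Krt17 are their type I partners. The genes lie in the corresponding clusters, where Krt6a neighbours Krt6b and Krt16 neighbours Krt17. In resting skin these keratins are kept mainly to hair follicles, nails, glands and the thick epidermis of palms and soles, with Krt17 in the outer root sheath and Krt6 in the companion layer. In wounds, psoriasis and phorbol ester-treated skin they appear in the epidermis between the follicles, while the differentiation keratins Krt1 and Krt10 are reduced. Krt17 is also known to promote growth and the production of cytokines by keratinocytes. Each gene is described here by its brightest probe set: 1422784_at for Krt6a, 1422588_at for Krt6b, 1448932_at for Krt16 and 1423227_at for Krt17.

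In acetone-treated skin the members differed greatly in how far mice of a group lay apart. Krt6b read 8.65, 4.15 and 6.05 in the 3 WT mice and 9.42, 8.21 and 11.75 in the 3 D6-deficient mice. The highest WT mouse was 22.6-fold above the lowest, the highest D6-deficient mouse 11.6-fold above the lowest, and the genotypes overlapped. The second WT mouse, at 4.15, lay near the bottom of the range, where the lowest mean kept for testing was 3.72, so that folds and differences that rest on it are not exact and may understate the distance. The SD of Krt6b was 2.26 for WT and 1.80 for D6-deficient mice, against a median SD over all tested probe sets of 0.151 and 0.139. Counting Krt6b itself, 4 tested probe sets varied that much or more in WT skin and 8 did so in D6-deficient skin. The mice therefore did not share a resting level of Krt6b.

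Krt16 also varied at day 0, though less. It read 6.85, 5.43 and 6.06 in WT mice (SD 0.71) and 8.50, 7.78 and 9.49 in D6-deficient mice (SD 0.86). All 3 D6-deficient mice lay above all 3 WT mice. Krt6a read 8.67, 8.77 and 8.25 in WT mice (SD 0.27) and 9.39, 9.30 and 10.43 in D6-deficient mice (SD 0.63). The third D6-deficient mouse stood apart from the other two for Krt6a and was highest for every member. Krt17 was the steadiest, at 10.02, 9.91 and 9.77 in WT (SD 0.12) and 10.55, 10.56 and 10.89 in D6-deficient skin (SD 0.19). Its SD lay at the 39.2th percentile of tested probe sets in WT and the 69.4th in D6-deficient skin, where that of Krt16 lay at the 98.6th and the 99.7th.

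**Figure D1:**
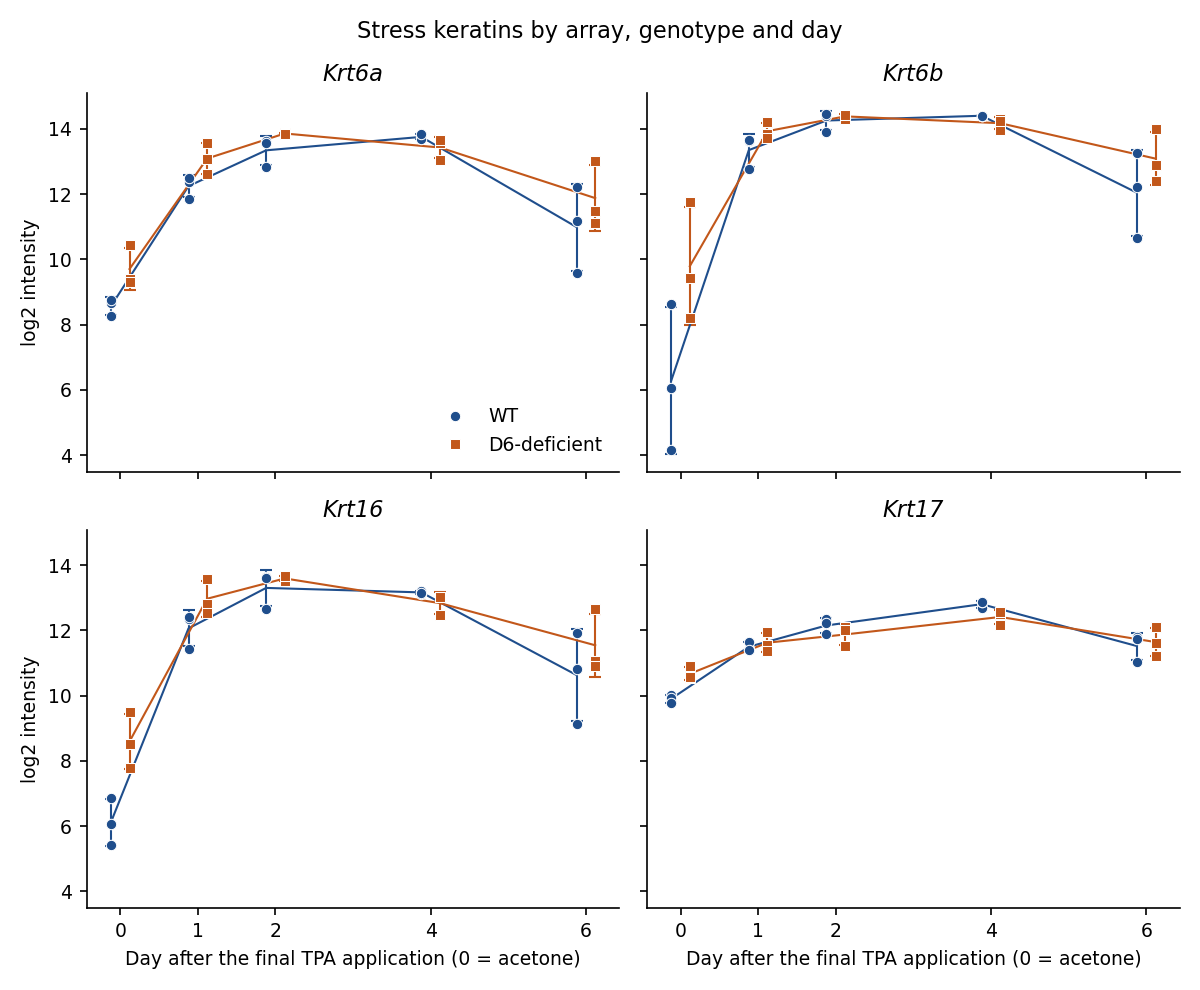
Log2 intensity (y axis) of the brightest probe set of each stress keratin against the day after the last TPA application (x axis), with day 0 for acetone; circles are WT and squares D6-deficient arrays, and lines join group means with SD bars (n = 3). At day 0 Krt6b spans 4.15 to 8.65 in WT and 8.21 to 11.75 in D6-deficient skin, whereas on day 4 the 3 WT arrays lie between 14.40 and 14.41.

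D6-deficient skin held more Krt16 and Krt6b than WT skin before any TPA. Krt16 was higher by 2.48 ± 0.54 (SE, n = 3 per group), a 5.57-fold difference (limma, adjusted p = 0.0184). Krt6b was higher by 3.51 ± 0.79, an 11.4-fold difference that includes the WT mouse at 4.15 (limma, adjusted p = 0.0236). Called here means more than 3-fold apart with a p under 0.05 after Benjamini-Hochberg adjustment over all tested probe sets. At day 0, 2 of the 8 member probe sets were called higher in D6-deficient skin, against 0.0527% of all tested probe sets. Krt6a (1.14 ± 0.47, adjusted p = 0.246) and Krt17 (0.77 ± 0.21, adjusted p = 0.0617) did not pass, although for both the 3 D6-deficient mice lay above the 3 WT mice. Over the 8 probe sets, 6 showed D6-deficient arrays wholly above WT arrays and none the reverse, where 10.8% of all tested probe sets showed the former. The 6 include the 3 probe sets of Krt6a, which are not separate evidence.

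The call for both genes depended on single mice. For Krt16, 4 of the 6 fits that left out 1 day 0 array lost it, and the difference ranged from 2.03 to 2.88 with adjusted p between 0.0148 and 0.121. For Krt6b, 4 of 6 lost it too, with a range of 2.45 to 4.70 and adjusted p between 0.00149 and 0.151. The arrays concerned were the second and the third WT mouse and the first and the third D6-deficient mouse. Fitted on the 6 day 0 arrays alone, neither gene passed, with adjusted p = 0.0586 for Krt16 and 0.211 for Krt6b. Within the arrays of the higher hybridization control mean (1 D6-deficient and 2 WT arrays) the genotypes differed by 2.36 for Krt16 and 3.02 for Krt6b, and within the lower (2 and 1) by 2.58 and 3.93, values that have no error since 1 side is a single array.

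Other keratinocyte transcripts were higher in D6-deficient skin at day 0, and the summed markers of some other cell types did not overlap between the genotypes. The basal keratins Krt5 (0.70 ± 0.14, adjusted p = 0.00987) and Krt14 (0.73 ± 0.16, adjusted p = 0.0174) were higher in D6-deficient skin, by less than 3-fold. The summed intensity of 7 keratinocyte markers with a probe set, of 8 listed, lay between 36000 and 38000 in WT and between 49740 and 53030 in D6-deficient arrays, a ratio of the means of 1.41. The summed adipocyte markers were wholly lower in D6-deficient arrays, at 56970 to 60670 against 64900 to 72060 in WT. Macrophage markers were wholly lower too, at 19510 to 25310 against 28210 to 30270, and so were skeletal muscle markers, at 95730 to 105600 against 106100 to 115000. In RNA from whole skin, fewer cells of a type and less RNA per cell cannot be told apart, and the part of these markers in the keratin differences was not tested.

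Alarmins and cornified envelope genes of activated epidermis were also higher in D6-deficient skin at day 0. Of 11 such genes tested, 6 were called higher in D6-deficient skin, against the same 0.0527% of all tested probe sets, among them Stfa3 (2.52 ± 0.40, adjusted p = 0.00166), an inhibitor of cysteine proteases, and Defb3 (2.99 ± 0.55, adjusted p = 0.0064), an antimicrobial peptide. S100a8, an alarmin made by keratinocytes and by neutrophils, was higher by 2.41 ± 0.58 (adjusted p = 0.0352). The summed neutrophil markers, which include S100a8 and S100a9, read 4595, 801.8 and 935.7 in the 3 WT mice and 4139, 2687 and 15080 in the 3 D6-deficient mice. The mouse with the highest sum in each genotype was also the one with the most Krt6b. Without S100a8 and S100a9 the other 6 neutrophil genes summed to between 291.8 and 375.3 in WT and between 315 and 324 in D6-deficient skin, with overlapping ranges.

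After TPA all 4 genes rose in WT skin from day 1. Krt6b read 13.62, 12.76 and 13.67 on day 1, 14.39, 14.47 and 13.91 on day 2, and 14.40, 14.40 and 14.41 on day 4. Every treated array lay above every day 0 array. From a day 0 mean that includes the array at 4.15, Krt6b rose by 7.07, 7.98 and 8.12 on these days and was still 5.76 above day 0 on day 6 (each ± 0.79 SE, limma, adjusted p between 2.4e-08 and 2.4e-05). The brightest of all probe sets on each array lay between 14.64 and 14.98, so that Krt6b stood close to the top of the measured range on days 2 and 4, where its change and its spread may be compressed. The summed skeletal muscle markers went from between 106100 and 115000 at day 0 to between 45290 and 68340 after TPA in WT skin. The summed keratinocyte markers went from between 36000 and 38000 to between 53330 and 69100 on days 1 and 2, were at 27850 to 33410 on day 4 and at 45610 to 56820 on day 6. This sum includes the differentiation keratins Krt1 and Krt10, which themselves fell on day 4, so it does not measure the number of keratinocytes. Neutrophil markers went from between 801.8 and 4595 to between 38220 and 57560 on days 2 and 4. Without S100a8 and S100a9 they went from between 291.8 and 375.3 to between 588.7 and 1197 on day 2. On day 4 these other neutrophil genes summed to between 3153 and 6313. The part of these markers in the rise was not tested.

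Krt16 went from between 5.43 and 6.85 at day 0 to 12.34, 11.42 and 12.41 on day 1 and to 13.63, 13.60 and 12.67 on day 2 in WT skin. The change was 5.95 on day 1, 7.19 on day 2, 7.05 on day 4 and 4.51 on day 6 (each ± 0.54, limma, adjusted p at most 5.63e-06), or 146-fold on day 2. Krt6a read 12.37, 11.86 and 12.50 on day 1 and 13.74, 13.69 and 13.84 on day 4. It rose by 3.68, 4.78, 5.19 and 2.43 on days 1, 2, 4 and 6 (each ± 0.47, limma, adjusted p at most 0.000701). Its 2 other probe sets, 1422783_a_at and 1427700_x_at, gave 5.67 and 5.27 on day 4.

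Krt17 rose on each day as well. It read 11.44, 11.65 and 11.40 on day 1, 12.35, 12.21 and 11.89 on day 2, and 12.68, 12.87 and 12.86 on day 4 in WT mice. The change of 1.59 on day 1 became 2.25 on day 2 and 2.90 on day 4 (each ± 0.21, limma, adjusted p at most 7.86e-06). Between days 2 and 4 Krt17 still rose, by 0.65 ± 0.21 (adjusted p = 0.0363, kept under 0.05 in 1 of the 6 fits that left out an array of these groups), while the brightest probe sets of Krt6a, Krt6b and Krt16 did not pass. Whether the genes differed in that step was not tested. The dim probe set 1420193_at of Krt17 (4.41 to 6.57 over the WT arrays) rose by 1.68 on day 4, whereas 1427841_at, shared with Krt14, stayed between 4.05 and 5.16 and passed the adjusted p only on day 2.

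In WT skin 6, 6, 7 and 6 of the 8 member probe sets were called higher on days 1, 2, 4 and 6, against 0.93%, 1.2%, 1.76% and 0.799% of all tested probe sets. Their median change was 3.59, 4.77, 5.23 and 2.32, where the median over all tested probe sets was −0.0081, −0.0038, 0.0057 and −0.0044. The Krt17 calls on days 1 and 6 sat at the 3-fold limit (3.02-fold and 3.06-fold) and were lost without the third WT mouse of day 0, at 1.53 and 1.55. On day 1 the call was lost also without the second mouse of that day (1.52), and on day 6 without the second (1.48) or the third (1.51).

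In D6-deficient skin the brightest probe set of each member rose as well. Krt6b read 14.22, 13.83 and 13.74 on day 1, 14.42, 14.32 and 14.42 on day 2, and 13.97, 14.31 and 14.24 on day 4. It rose by 4.14, 4.59 and 4.38 and stayed 3.30 above day 0 on day 6 (each ± 0.79, limma, adjusted p at most 0.00256). All arrays after TPA lay above the day 0 arrays, including the one at 11.75. Krt16 read 13.58, 12.80 and 12.52 on day 1 and 13.61, 13.52 and 13.65 on day 2. Its change was 4.38, 5.0, 4.24 and 2.95 on days 1, 2, 4 and 6 (each ± 0.54, limma, adjusted p at most 0.000224). The summed skeletal muscle markers went from between 95730 and 105600 at day 0 to between 26760 and 68180 after TPA in D6-deficient skin. Neutrophil markers went from between 2687 and 15080 to between 50260 and 56640 on days 2 and 4. Without S100a8 and S100a9 they went from between 315 and 324 to between 2623 and 8891 on day 2. On day 4 these other neutrophil genes summed to between 6138 and 6888. Keratinocyte markers went from between 49740 and 53030 to between 55550 and 64460 on days 1 and 2 and were at 17310 to 24450 on day 4. Here too the sum includes Krt1 and Krt10, which fell on day 4. The part of these markers in the rise was not tested.

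Krt6a read 13.56, 13.09 and 12.63 on day 1 and 13.85, 13.87 and 13.85 on day 2 in D6-deficient mice, the tightest group of this gene. It rose by 3.39, 4.15, 3.72 and 2.17 (each ± 0.47, limma, adjusted p at most 0.00108). Krt17 read 12.11, 11.52 and 12.00 on day 2 and 12.17, 12.50 and 12.56 on day 4. Its change of 0.95, 1.20, 1.74 and 0.97 (each ± 0.21, limma, adjusted p at most 0.00108) exceeded 3-fold on day 4 alone. Of the 8 member probe sets, 5, 5, 6 and 5 were called higher on days 1, 2, 4 and 6, against 1.06%, 1.7%, 1.97% and 0.888% of all tested probe sets.

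**Figure D2:**
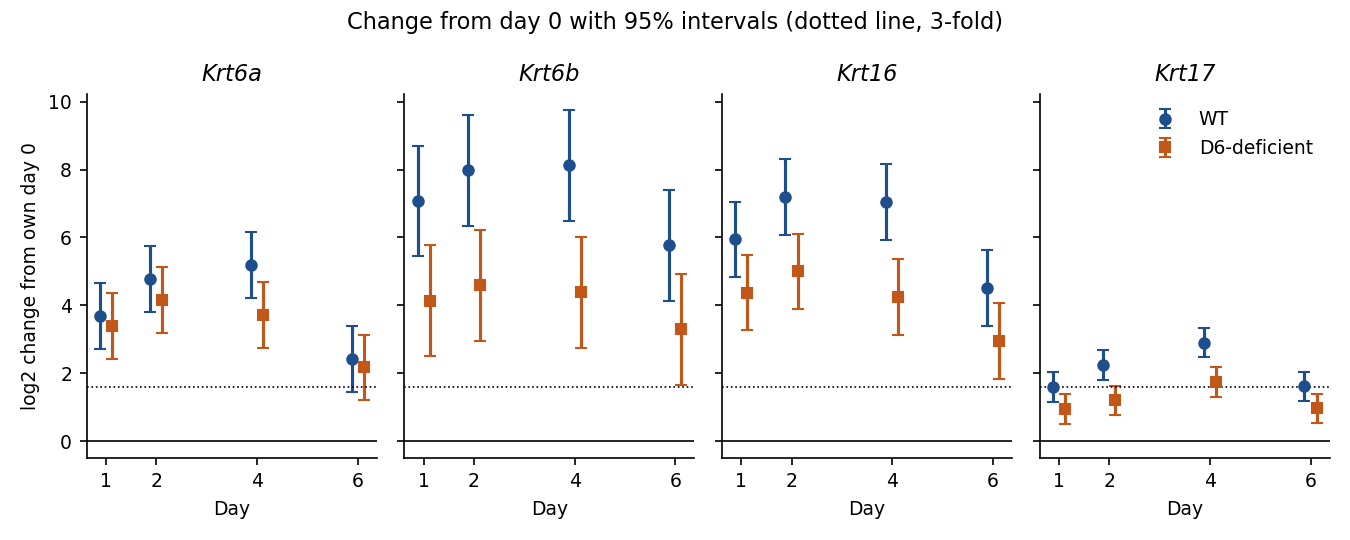
Change of each stress keratin from day 0 of its own genotype (y axis, log2; points with 95% intervals from limma, n = 3 per group) on days 1, 2, 4 and 6 (x axis); circles are WT, squares D6-deficient, and the dotted line marks 3-fold. Krt6b rises by 8.12 in WT and by 4.38 in D6-deficient skin on day 4, and the D6-deficient point lies below the WT point for all 4 genes on every day.

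The question whether the response to TPA differed between genotypes was put as the difference of the 2 changes, which shares its day 0 arrays with the comparison before TPA. For Krt6b the change in D6-deficient minus that in WT skin was −2.93, −3.39, −3.74 and −2.47 on days 1, 2, 4 and 6 (each ± 1.12). On days 2 and 4 Krt6b lay between 13.91 and 14.47 in both genotypes, close to the top of the range, and these values are near the day 0 difference of 3.51 with its sign turned. None of these passed (limma, adjusted p = 0.374, 0.0802, 0.135 and 0.586). Without the first WT mouse of day 0 it was called on days 2 (−4.57, adjusted p = 0.0064) and 4 (−4.93, adjusted p = 0.0276), and without the second D6-deficient mouse of day 0 on day 2 (−4.18, adjusted p = 0.0264). For Krt16 the difference was −2.19 ± 0.76 on day 2 (adjusted p = 0.101) and −2.81 ± 0.76 on day 4 (adjusted p = 0.0939). Krt6a differed by −0.30, −0.63, −1.47 and −0.25 over the 4 days (each ± 0.66).

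Krt17 was the one member whose change differed at the adjusted p, by −1.04 ± 0.30 on day 2 (adjusted p = 0.038), a 2.06-fold difference and under the 3-fold limit. Leaving out 1 of the 12 arrays kept the adjusted p under 0.05 in 5 of 12 fits, with values from −1.17 to −0.86. On day 4 the difference was −1.16 ± 0.30 (adjusted p = 0.0717). No member probe set was called on any of the 4 days by limma, where 0.00278%, 1.11%, 0.153% and 0.00278% of all tested probe sets were. At an unadjusted p under 0.05, 14 of the 32 pairs of probe set and day passed, all 14 of them lower in D6-deficient skin. Over all tested probe sets 9.7%, 16.9%, 11% and 8.01% passed that limit on days 1, 2, 4 and 6. The methods' t-test, run on values from which the median of the own controls was subtracted, called 5 of 32 pairs before adjustment, where it called 108, 468, 169 and 66 of all 36029 probe sets on days 1, 2, 4 and 6. After adjustment it called 3, 2 on day 2 and 1 on day 4, and over all probe sets 2, 268, 5 and 0. The subtracted median carries no error in that test, so its calls leave out the spread of the day 0 arrays.

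Once TPA had been applied, the levels themselves did not differ between genotypes at the threshold. With limma, 0 of the 8 member probe sets were called on days 1, 2, 4 and 6, against 0.0139%, 0.572%, 0.0777% and 0.0167% of all tested probe sets, and 0 of the 32 pairs had an unadjusted p under 0.05, where 8.01%, 15.5%, 10.1% and 8.37% of all tested probe sets had. The methods' t-test called 0 of the 32 pairs before and after adjustment, where over all 36029 probe sets it called 30, 206, 48 and 23 before adjustment and 0 on each of these days after it. The intervals still allowed sizeable differences: for Krt6b the 95% interval on day 1 ran from −1.05 to 2.21 and on day 4 from −1.86 to 1.40. For Krt17 it ran from −0.31 to 0.56 on day 1 and from −0.83 to 0.04 on day 4.

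The arrays lay in opposite order on days 1 and 4. On day 1, 5 of the 8 probe sets, those of Krt6a, Krt6b and Krt16, had all D6-deficient arrays above all WT arrays, against 7.92% of all tested probe sets. The summed skeletal muscle markers were wholly lower in D6-deficient arrays on that day, at 32000 to 41270 against 45290 to 66960 in WT. On day 2, 3 of the 8 had all D6-deficient arrays above all WT arrays and 0 below, against 10.4% and 11.9% of all tested probe sets. The 3 probe sets of Krt6a correlated with each other at 0.997 or more over the 30 arrays, so they are not separate evidence in these counts. On day 4, 6 of 8 had all D6-deficient arrays below all WT arrays, against 7.37%. Krt16 is an example, at 13.12 to 13.22 in WT and 12.46 to 13.04 in D6-deficient skin on day 4. Its difference was −0.33 ± 0.54 (adjusted p = 0.926). The summed keratinocyte markers were also wholly lower in D6-deficient arrays on day 4, at 17310 to 24450 against 27850 to 33410 in WT. That list includes Krt1 and Krt10, which fell on day 4. The first D6-deficient mouse of that day was lowest for all 4 genes and had the sum of 17310, with a skeletal muscle marker sum of 68180 where the others had 46790 and 47730. The part of these markers in the order on days 1 and 4 was not tested. The SE of the Krt16 difference rests on all 30 arrays, among them the widely spread arrays of days 0 and 6.

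From day 4 to day 6 all 4 genes fell in WT skin, and the mice drew apart. In WT skin Krt16 went from 13.22, 13.12 and 13.15 to 9.14, 11.92 and 10.83, Krt6a from between 13.69 and 13.84 to 9.57, 12.22 and 11.18, and Krt6b to 10.65, 13.25 and 12.23. No day 6 array reached the day 4 range, and the first WT mouse was the lowest for all 4 genes. The keratinocyte marker sum went from between 27850 and 33410 on day 4 to 45610, 56820 and 56730 on day 6, lowest in the same mouse. It includes Krt1 and Krt10, which were below their day 0 level on day 4. The summed neutrophil markers went from between 45560 and 57560 to between 7650 and 9084. Without S100a8 and S100a9 they went from between 3153 and 6313 to between 385 and 518.5. The part of these markers in the fall was not tested. Krt6a fell by 2.77 ± 0.47 (limma, adjusted p = 0.000116), Krt16 fell by 2.53 ± 0.54 (adjusted p = 0.00121), Krt6b fell by 2.36 ± 0.79 (adjusted p = 0.0328) and Krt17 fell by 1.28 ± 0.21 (adjusted p = 7.41e-05), the last by less than 3-fold.

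In D6-deficient skin the decline was smaller on average. Krt16 read 11.07, 12.66 and 10.90 on day 6 after 12.46, 13.04 and 13.01 on day 4, and the days overlapped. The difference of −1.29 ± 0.54 did not pass (adjusted p = 0.0702), nor did that of Krt6b, −1.09 ± 0.79 (adjusted p = 0.313). Krt6a fell by 1.55 ± 0.47 (adjusted p = 0.0136) and Krt17 fell by 0.77 ± 0.21 (adjusted p = 0.00664), both under 3-fold. Of the 8 probe sets, 5 were called lower in WT skin and 2, both of Krt6a, in D6-deficient skin, against 1.1% and 1.56% of all tested probe sets. Whether the decline itself differed between genotypes was not tested. Keratinocyte markers in D6-deficient skin, among them Krt1 and Krt10, went from between 17310 and 24450 on day 4 to between 50840 and 53900 on day 6. Krt1 and Krt10 were below their day 0 level on day 4. Skeletal muscle markers went from between 46790 and 68180 to between 26760 and 45640. Neutrophil markers went from between 55810 and 56640 to between 7086 and 23110. Without S100a8 and S100a9 they went from between 6138 and 6888 to between 449.5 and 958.9. The part of these markers in the decline was not tested.

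In D6-deficient skin Krt16 and Krt6a were called lower without the second mouse of day 6 (−1.85, adjusted p = 0.0169 and −2.13, adjusted p = 0.00145), and Krt6a also without the first mouse of day 4 (−1.74, adjusted p = 0.0176). The Krt6b call in WT skin held only without the second mouse of day 6, 1 of the 6 fits that left out an array of these groups, with values from −2.96 to −1.66, while the Krt16 call held in 6 of 6. On day 6 the SD of Krt6a, Krt6b and Krt16 was 1.33, 1.31 and 1.40 in WT and 1.01, 0.81 and 0.97 in D6-deficient skin. By contrast, the SD in WT skin on day 4 was 0.08, 0.0066 and 0.05. On day 2 it was 0.44, 0.30 and 0.55 in WT and 0.011, 0.059 and 0.07 in D6-deficient skin, and on day 4 it was 0.33, 0.18 and 0.33 in D6-deficient skin. For Krt6b the narrow groups lay close to the top of the measured range, where a small SD does not show that the mice had the same level. The narrowest Krt6a group, D6-deficient day 2, also had the highest mean of that gene. Its SD of 0.011 was that of the brightest probe set, and 1422783_a_at and 1427700_x_at gave 0.060 and 0.091 there.

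**Figure D3:**
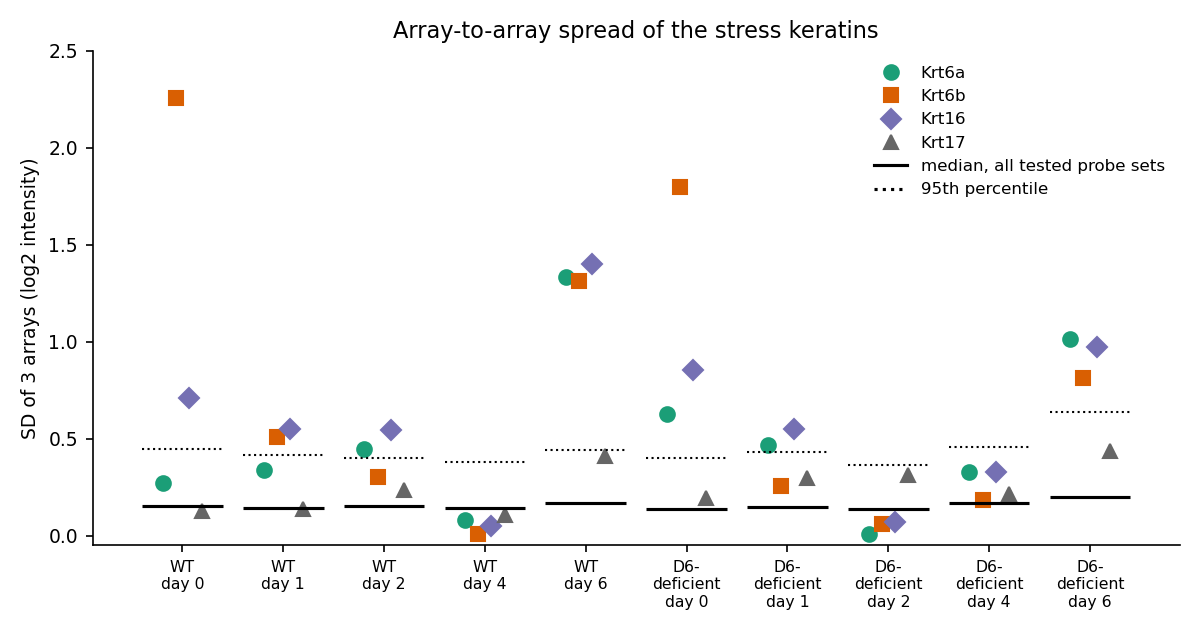
SD of the 3 arrays of each group (y axis, log2 intensity) for the brightest probe set of each stress keratin, by genotype and day (x axis); solid lines give the median and dotted lines the 95th percentile of the SD over all tested probe sets. At day 0 the SD of Krt6b is 2.26 for WT and 1.80 for D6-deficient mice, and Krt6a, Krt6b and Krt16 lie near 1 or above on day 6 in both genotypes except Krt6b at 0.81 in D6-deficient skin.

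Hair follicle transcripts moved with the mice on days 1 and 6. The summed intensity of 11 hair follicle matrix markers with a probe set, of 12 listed, lay between 322.3 and 544.1 on all arrays of days 0, 2 and 4. It was 4548, 882.5 and 3540 on day 1 and 2538, 6548 and 6966 on day 6 in WT skin, and 6294, 6085 and 3622 on day 1 and 8678, 35810 and 2881 on day 6 in D6-deficient skin. The mouse with the lowest sum of its group was also the lowest for Krt16 in all 4 of these groups. The summed melanocyte markers were lowest in the same mice. They read 1046 and 2130 in WT and 3595 and 1554 in D6-deficient skin on days 1 and 6. Krt17 was lowest in that mouse only in WT skin on day 6 and D6-deficient skin on day 1. The WT mouse at 882.5 had the most Krt17 of its group, at 11.65. The mouse with the highest sum had the most Krt16 in D6-deficient skin on both days, but not in WT skin. On day 6 the D6-deficient mouse at 35810 had the most Krt16 of its group, at 12.66, and the WT mouse at 2538 had the least, at 9.14. The part of follicles and of melanocytes in the keratin levels of days 1 and 6 was not tested. On days 2 and 4, when Krt16 lay between 12.46 and 13.65, the follicle sum was at most 544.1.

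**Figure D4:**
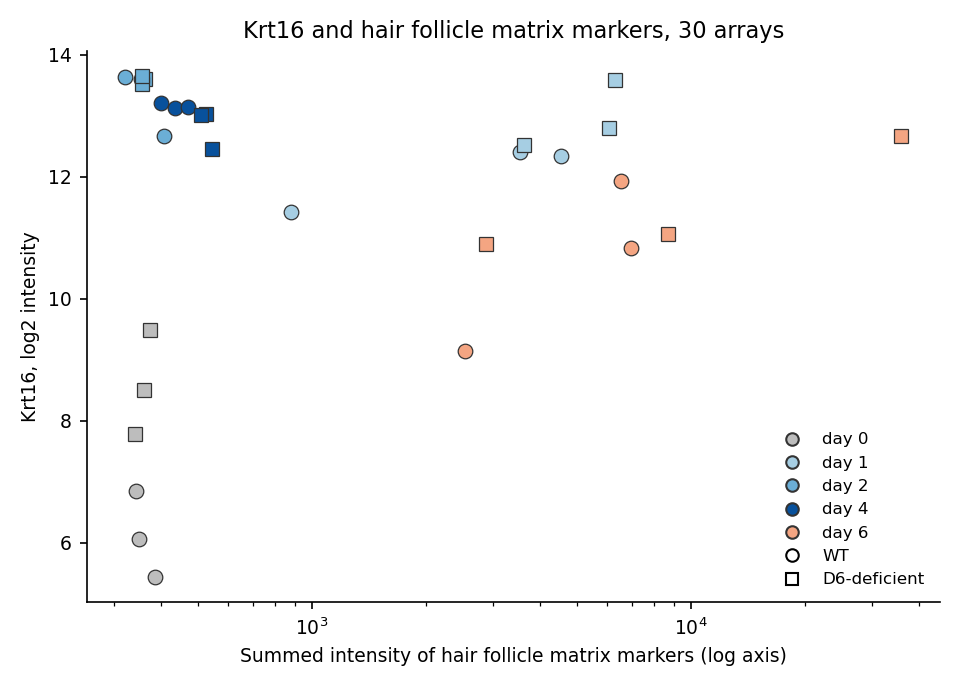
Krt16 (y axis, log2 intensity) against the summed linear intensity of 11 hair follicle matrix markers (x axis, log scale) on the 30 arrays; colours give the day, circles WT and squares D6-deficient skin. The arrays of days 2 and 4 combine high Krt16 with follicle sums of 322.3 to 544.1, and those of days 1 and 6 spread along the follicle axis from 882.5 to 35810.

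Other keratins took other courses, as counted over the brightest probe set of each gene. Of 5 suprabasal keratins tested, 4 were called lower on day 4 in both genotypes, against 1.48% of all tested probe sets in WT and 2.04% in D6-deficient skin. For genes called higher, here and in the lists that follow, the shares of all tested probe sets are those given for the members, at most 1.76% in WT and 1.97% in D6-deficient skin. Krt10, the type I keratin of differentiating epidermis, fell by 4.27 ± 0.42 in WT and by 5.52 ± 0.42 in D6-deficient skin, and its partner Krt1 fell by 2.52 ± 0.48 and by 4.46 ± 0.48 (adjusted p at most 0.000196). The largest change among the suprabasal keratins came earlier, on day 2 in D6-deficient skin, where Krt77 fell by 7.22 ± 1.00 (limma, adjusted p = 4.08e-06). On day 1 neither genotype had a suprabasal keratin called lower, and Krt1 rose in WT skin by 1.72 ± 0.48. Krt15, a keratin of basal and follicle stem cells, fell by 2.83 ± 0.29 and by 4.02 ± 0.29 on day 4. The basal keratin Krt14 rose by 1.33 ± 0.16 in WT and by 0.86 ± 0.16 in D6-deficient skin on day 2.

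Keratins of the follicle sheath moved on days 1 and 6. Of 9 tested, 6 were called higher on day 1 and 8 on day 6 in WT skin, but 0 on day 2 and 1 on day 4. In D6-deficient skin 7 were called higher on day 1, 8 on day 6, 0 on day 2 and 1 on day 4. Krt25, a keratin of the inner root sheath, rose by 7.66 ± 0.46 on day 1 and by 8.47 ± 0.46 on day 6 in WT skin, with changes of 0.04 on days 2 and 4. Among 11 hair shaft keratins, 5 in WT and 10 in D6-deficient skin were called higher on day 6, Krt35 by 6.79 ± 0.55 and 7.13 ± 0.55.

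**Figure D5:**
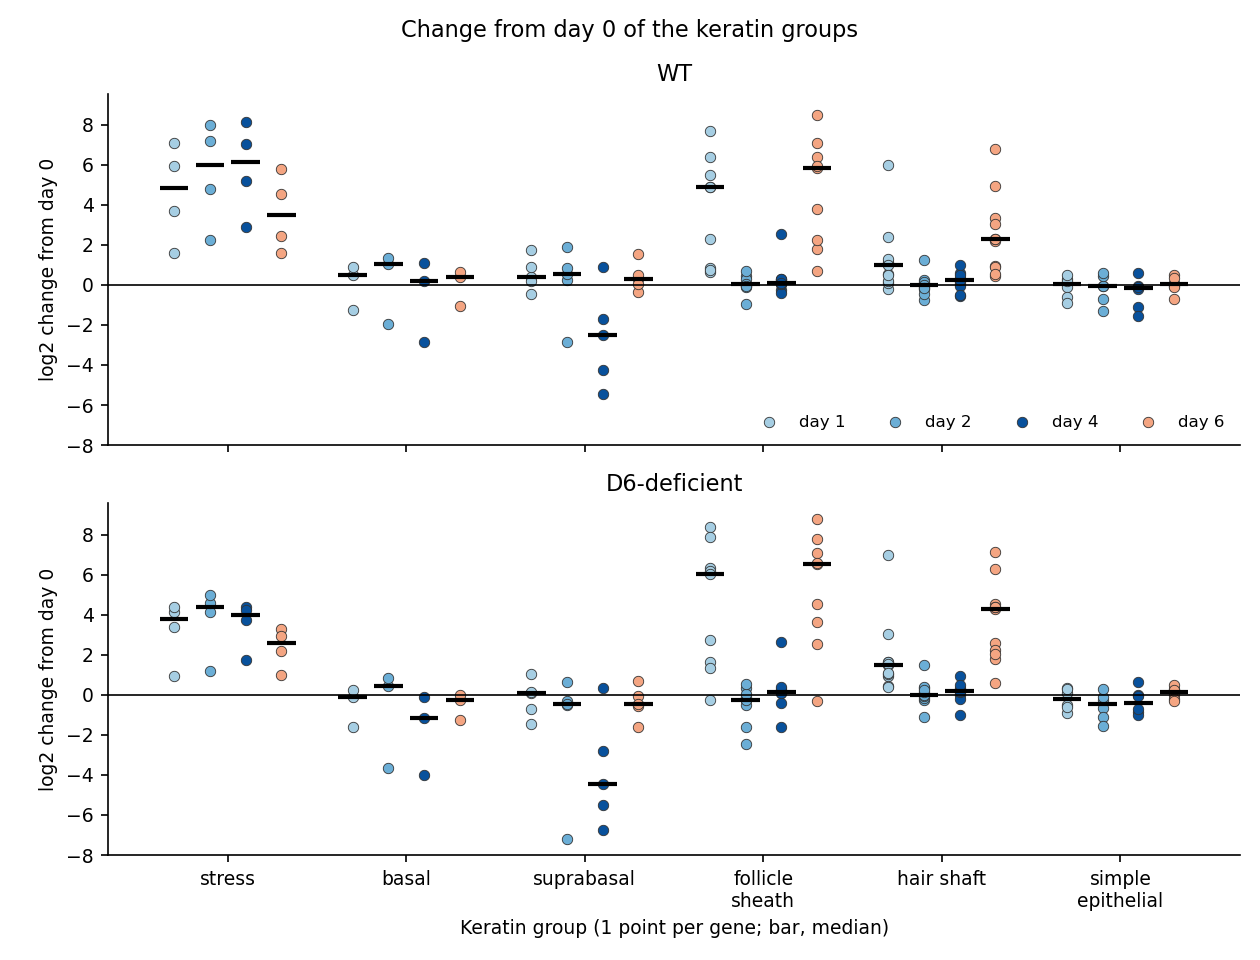
Change from day 0 of the own genotype (y axis, log2) for the brightest probe set of each gene in 6 keratin groups (x axis), WT above and D6-deficient below; colours give the day and bars the group median. The 4 stress keratins lie above 0 on all days, suprabasal keratins fall on day 4, and follicle sheath keratins rise on days 1 and 6 only, save 1 gene called on day 4.

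Across the 30 arrays the members followed a similar course. Krt16 correlated with Krt6a at 0.98 and with Krt6b at 0.98 (Pearson), and Krt17 with the other 3 at 0.88 to 0.91. These are descriptions over arrays that share the time course. Within groups, after subtraction of each group mean, Krt16 still correlated at 0.91 with Krt6a and at 0.84 with Krt6b, Krt6a correlated at 0.61 with Krt6b, and Krt17 at 0.47 with Krt6b, 0.72 with Krt16 and 0.76 with Krt6a. In 8 of the 10 groups the same array was lowest for Krt6a, Krt6b and Krt16, and in 5 the same array was highest for them.

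The genes nearest to each member were found by Pearson correlation, again as a description. Over the 30 arrays the nearest to Krt16 was Sprr1b, a cornified envelope precursor (r = 0.99), followed by Lce3f (0.98), a late cornified envelope gene of the group that rises in psoriasis. Gjb6, a gap junction connexin, was nearest to Krt6a (0.98), and a probe set annotated to both BC100530 and Stfa1, cysteine protease inhibitors, was nearest to Krt6b (0.97). Krt17 stood nearer to Endou (0.95), Sprr2f (0.94) and Klk6 (0.94), an epidermal serine protease. Within groups the nearest were Fabp5, a fatty acid binding protein of keratinocytes, for Krt16 (0.90), Aqp3, a water and glycerol channel, for Krt6a (0.88), Sprr2d for Krt6b (0.96) and Sdc1, a cell surface proteoglycan, for Krt17 (0.79).

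Among 10 ligands and receptors of the EGF receptor family, which is known to drive these keratins, 3, 5, 4 and 0 were called higher in WT skin on days 1, 2, 4 and 6, and 2, 2, 4 and 0 in D6-deficient skin. Hbegf, an EGF receptor ligand released by injured keratinocytes, rose by 3.32 ± 0.28 in WT and by 3.39 ± 0.28 in D6-deficient skin on day 4. On day 6 it was 0.32 and 0.33 above day 0, with no pass. Epgn, the ligand epigen, rose by 3.19 ± 0.50 in WT and by 1.60 ± 0.50 in D6-deficient skin on day 4. Ereg, the ligand epiregulin, rose by 2.47 ± 0.36 on day 2 in WT skin. On day 4 it fell by 2.81 ± 0.36 in D6-deficient skin. These values come from different days and do not compare the genotypes. Btc, betacellulin, fell by 1.77 ± 0.43 in WT and fell by 2.89 ± 0.43 in D6-deficient skin on day 6.

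Of 11 cytokines tested that are known to induce stress keratins, 5, 6, 7 and 3 were called higher in WT skin over the 4 days and 3, 6, 6 and 0 in D6-deficient skin. Il36a, an epidermal cytokine of the IL-1 family, rose by 5.32 ± 0.44 on day 2 in WT and by 2.66 ± 0.44 in D6-deficient skin. Il1b rose by 4.58 ± 0.32 and by 4.45 ± 0.32 on day 4. Il6 rose by 6.33 ± 0.39 and by 6.58 ± 0.39 and Il24, which signals through STAT3, by 3.86 ± 0.27 and 4.25 ± 0.27 on that day.

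Of 23 tested transcription factors known to act on stress keratin genes, at most 3 were called higher in a genotype and day. Junb and Fosl1, subunits of AP-1, rose by 1.68 ± 0.16 and by 1.85 ± 0.28 in WT skin on day 4, and by 1.38 ± 0.16 and 1.75 ± 0.28 in D6-deficient skin. Gli1, the hedgehog effector of growing follicles, was called higher on days 1 and 6 alone, by 2.13 ± 0.40 and 2.18 ± 0.40 in WT skin.

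Genes whose products join keratin filaments to the cell or are known as their partners were mixed. Of 15 tested, 2 on day 2 in WT and 1 in D6-deficient skin were called higher. Sfn, the 14-3-3 protein that binds Krt17, rose by 2.13 ± 0.26 in WT and by 1.44 ± 0.26 in D6-deficient skin on day 2. Eppk1, epiplakin, a linker of keratin filaments, fell by 1.37 ± 0.31 in WT and fell by 2.85 ± 0.31 in D6-deficient skin on day 2. Of the 11 alarmin and envelope genes, 11 were called higher on days 2 and 4 in both genotypes. Sprr1b rose by 7.69 ± 0.54 in WT and by 6.00 ± 0.54 in D6-deficient skin on day 2.

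Terminal differentiation genes moved in both directions. Of 9 tested, 5 were called higher in WT skin on day 2, with Casp14, a protease that helps to break down filaggrin, up by 4.15 ± 0.26. On day 4 in D6-deficient skin 3 were called lower, against 2.04% of all tested probe sets. Among them were Flg, filaggrin, which fell by 4.39 ± 0.51, and Lor, loricrin, which fell by 4.38 ± 0.47. Of 12 proliferation genes, 7, 7, 2 and 8 were called higher in WT skin on days 1, 2, 4 and 6 and 7, 5, 1 and 7 in D6-deficient skin. Cdk1, which drives entry into mitosis, was 2.28 ± 0.31 above day 0 on day 6 in WT skin, when Krt6a had fallen from its day 4 level.

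Ordered by level, WT skin at day 0 was lowest and D6-deficient skin at day 0 next for every member. D6-deficient skin on day 2 had the highest mean for Krt6a (13.86) and Krt16 (13.59), and WT skin on day 4 for Krt17 (12.80). None of these differed from the next group at the threshold. The steps were 0.10 ± 0.47 to WT day 4 for Krt6a, 0.29 ± 0.54 to WT day 2 for Krt16 and 0.39 ± 0.21 to D6-deficient day 4 for Krt17 (limma, adjusted p = 0.925, 0.875 and 0.566). For Krt6b, close to the top of the range, WT day 4 (14.40) and D6-deficient day 2 differed by 0.019 ± 0.79 (adjusted p = 0.992) and have no order either. For Krt6a the step from WT day 6 down to D6-deficient day 0 was the only neighbouring step that passed, at 1.28 ± 0.47 (limma, adjusted p = 0.0418). For Krt16 that step was 2.04 ± 0.54 (adjusted p = 0.00636) and for Krt6b 2.25 ± 0.79 (adjusted p = 0.0344), and both genes passed also at the step between the 2 day 0 groups. For Krt17 the step from WT day 1 to D6-deficient day 0 passed, at 0.83 ± 0.21 (adjusted p = 0.00475). Among the groups on days 1, 2, 4 and 6 no neighbouring step passed for any of the 4 genes. The order was taken from these same means, so neighbours lie close by construction and this does not show that the groups were alike. Groups further apart in the order did differ, such as WT day 6 minus WT day 4 for Krt6a (−2.77 ± 0.47, limma, adjusted p = 0.000116).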

How the data were processed

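Whole back skin RNA of 30 mice was hybridized to Affymetrix mouse genome arrays, 1 mouse per array. The authors normalised the arrays by RMA in GeneSpring, and the deposited values are linear intensities, of which log2 was taken here. The array number limits the precision. The 64 control probe sets were left out and, after the study's filter on low expression, the lowest 20% of the others, ranked here by mean, and 36029 were tested. With limma 3.58.1 in R 4.3.3, each of the 10 groups was given its own mean over all 30 arrays, and 23 contrasts were taken. P-values were Benjamini-Hochberg adjusted over all tested probe sets of a contrast. The 95% intervals are unadjusted. Every probe set of the members is described. For each member the 5 most correlated probe sets of other genes were found, and genes were taken from pathway lists. The members and lists were chosen with earlier results of these data known. The methods' t-test, other filters, scalings, weights and covariates, and leaving out each array were the alternatives. The fit was tested on simulated data.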

Additional observations from a re-analysis of the deposited data

Results flagged for a closer look

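The change of Krt17 from day 0 to day 2 (1423227_at) differed between genotypes in a test of the difference itself, at −1.04 ± 0.30 (SE, 3 mice per group; limma, adjusted p = 0.038). Krt17 rose by 2.25 in WT and by 1.20 in D6-deficient skin. The level on day 2 differed by −0.28 and that at day 0 by 0.77, and both comparisons share arrays with this difference.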

How the results depend on the processing

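Of 32 pairs of member probe set and day, 25 were called from day 0 in WT and 21 in D6-deficient skin. Leaving out 1 array gave 23 to 25 and 21 to 21. The methods' t-test gave 18 and 14 after adjustment and 24 and 21 before it. After adjustment it called 0 member probe sets on day 6 in either genotype, where over all 36029 probe sets it called 0 in WT and 250 in D6-deficient skin. The same-day comparison of genotypes called 2 of 40 pairs, with 0 to 2 when an array was left out, 0 on the arrays of the contrast alone, and 1 by the methods' t-test before and 0 after adjustment. The difference in change called 0 of 32 pairs, with 0 to 2 when an array was left out. It called 1 on the arrays of the contrast alone, 2 with array weights, 1 with no fold threshold, and 5 and 3 by the methods' t-test before and after adjustment. Successive days called 7 of 48 pairs, with 5 to 9 when an array was left out, 15 with no fold threshold, and 5 before and 0 after adjustment by the methods' t-test. With no fold threshold, 7 and 5 of the 15 were from day 4 to 6 in WT and D6-deficient skin, where 7956 and 11307 of all 36029 probe sets passed. The adjusted t-test called 0 to 395 of all probe sets in the 6 successive comparisons. The cause was not tested.

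Single values changed sign in a few cases, none of them past the threshold. Krt17 on day 6 (D6-deficient minus WT) was −0.048 with array weights and −0.12 to 0.34 when an array was left out. The difference in change of Krt6a was 0.13 on day 1 and 0.17 on day 6 by the methods' t-test, and −0.53 to 0.066 and −0.96 to 0.36 when an array was left out. Leaving out an array gave −0.015 to 0.37 for 1427841_at on day 6 in D6-deficient skin. Between genotypes it gave −0.024 to 0.46 for Krt16 on day 2, −0.046 to 0.23 for Krt6b on day 2 and −0.038 to 0.26 for Krt17 on day 1.

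The replicate block changed no call. Deviations of same-numbered arrays correlated over 0.1 in 31 of 135 pairs of arrays (median −0.01), and in 2 of 45 pairs of groups, D6-deficient day 1 with day 2 and with day 6, all 3 did. The mice of different groups were different animals. Dropping the lowest 40% gave no value for 1427841_at.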
